A study of Ovis aries with 16 samples.

Results

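Lipoprotein lipase (LPL), perilipin 5 (PLIN5) and the muscle form of carnitine palmitoyltransferase 1 (CPT1B) were described in the left ventricle of fetal sheep after infusion of losartan or angiotensin II. The 3 genes were chosen by their treatment ratios in these samples, so those ratios are given as descriptions and nothing is read from tests of them. All non-control probes for these genes were taken by gene name, accession or description, which gave 7 of the 15008 probes on the array, for 3 of its 857 gene names. Heart tissue was measured in 16 fetuses of 8 twin pregnancies on 1-colour Agilent sheep arrays, 1 array per fetus. In twin sets 1 to 4, 1 fetus received losartan, which blocks the type 1 angiotensin II receptor, and the other was untreated. In twin sets 5 to 8, 1 fetus received angiotensin II, the peptide that acts on this receptor, and the other was untreated. The labels give no dose, fetal sex or breed, and no operation or infusion for the untreated fetuses. Treated fetuses were catheterized at 125 to 126 days of a 145-day gestation and hearts were taken after 5 days of treatment, close to the end of fetal life. The labels describe the infusions as daily in one place and as continuous in another, and the tissue as the free wall in one place and as free wall and septum in another.

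Muscle cells of the heart burn fatty acids that arrive bound to albumin or packed in lipoproteins. LPL works at the inner surface of capillaries, where it frees fatty acids from lipoprotein triglyceride. PLIN5 coats lipid droplets in oxidative tissues, holds back lipolysis at rest and tethers droplets to mitochondria. CPT1B sits in the outer mitochondrial membrane and joins long-chain fatty acids to carnitine, the step that commits them to oxidation. The heart before birth relies mainly on glucose and lactate, and use of fatty acids grows after birth.

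The probes decide what each value can say, so their sequences are given first, 5′ to 3′, from the sequence column of the scanner files. LPL had 2 probes in the middle of its transcript record, starting at bases 1497 and 1537, and a further probe that the files describe as lying in the 3′ untranslated region. The 2 mid-transcript probes, called the coding probes here, share 20 bases, shown in capitals, so they are not independent readings.
LPL probe at base 1497: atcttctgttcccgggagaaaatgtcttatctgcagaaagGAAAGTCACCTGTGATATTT
LPL probe at base 1537: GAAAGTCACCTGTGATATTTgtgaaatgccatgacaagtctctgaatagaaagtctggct
PLIN5 had 2 probes that are offset by 1 base and share the 59 bases in capitals, so they read nearly the same stretch.
PLIN5 probe at base 635: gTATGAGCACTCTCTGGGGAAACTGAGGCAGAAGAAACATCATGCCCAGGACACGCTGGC
PLIN5 probe at base 636: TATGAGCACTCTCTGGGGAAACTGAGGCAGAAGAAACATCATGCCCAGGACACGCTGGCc
CPT1B had 2 probes, at bases 2386 and 2406, that share 40 of their 60 bases. The first 30 bases of the earlier one are shown.
CPT1B probe at base 2386: agacatcgccaatcttttccaagtttctaa

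Both LPL and CPT1B gave strong signals in every fetus, and PLIN5 was dim. The LPL 3′ UTR probe had a processed signal between 14938 and 37945 fluorescence units (median 24707), and all 3 LPL probes were marked well above background by the scanner software on all 16 arrays. The CPT1B probes had medians of 4052 units (base 2386) and 3448 units (base 2406) and were also well above background on all 16 arrays. The PLIN5 probe at base 635 had a median of 120 units and was well above background on 11 of 16 arrays: 4 of 4 losartan fetuses and 2 of 4 of their twins, and 1 of 4 angiotensin II fetuses and 4 of 4 of theirs. The PLIN5 probe at base 636 was well above background on 7 of 16 arrays. It did not pass the filter for tests, which asked for well above background on all arrays of at least 1 group, and it is given as a second reading of the same stretch. Signals of different probes are not compared, since a probe's brightness depends on its sequence.

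Facts of the whole series bear on these values. The 75th percentile of the processed signal was 1124 to 1709 units per array, and 57.3% to 64.1% of probes were well above background. All values below are log2 processed signals minus the 75th percentile of the same array, so a value of 0 means the signal of that percentile. The arrays lay on 2 slides of 8, each scanned once. Twins of sets 2, 3, 6 and 8 shared a slide, and those of sets 1, 4, 5 and 7 did not. Losartan fetuses of sets 1, 2 and 4 were on slide 2, but only the untreated twin of set 2 was. In the angiotensin II sets each slide held 2 treated fetuses and 2 twins. On 3 arrays the bright corner control spots had log2 signals of 17.24 to 17.73, against 14.40 to 15.36 on the other 13. They held the angiotensin II fetuses of sets 7 and 8 and the untreated twin of set 2. The number of arrays, 4 per group, limits the precision of each mean. Myoglobin (MB) is the oxygen store of muscle and the only one of 14 cardiomyocyte markers to which a probe could be matched by name. Of the 15008 probes 13621 had no gene name, so other markers may be on the array unnamed. Both MB probes were well above background on all 16 arrays (5.58 to 6.27 and 5.50 to 6.25). The twin ratios of MB are given beside those of CPT1B. In whole tissue, fewer cells of a type and less RNA per cell cannot be told apart.

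LPL read higher in losartan hearts than in their twins on the 3′ UTR probe. Losartan fetuses of sets 1 to 4 had log2 values of 4.47, 4.39, 4.44 and 4.76, against 4.10, 3.45, 4.00 and 3.90 in their untreated twins. The lowest losartan fetus stood above the highest twin. LPL was chosen by these ratios and no share of tested probes with such a gap is given, so nothing is read from it. The log2 ratios over the twin were 0.37, 0.94, 0.44 and 0.86, with a mean of 0.65 ± 0.29 (SD, n = 4 sets), a 1.57-fold higher signal. Set 2 gave the largest ratio, and its untreated twin, at 3.45, is 1 of the 3 arrays with bright corner spots. With angiotensin II the same probe read 4.03, 3.93, 3.15 and 4.15 in the treated fetuses of sets 5 to 8, against 4.10, 4.10, 3.96 and 4.46 in their twins. These groups overlapped, while within each set the treated fetus was lower. The log2 ratios were -0.06, -0.17, -0.80 and -0.31, with a mean of -0.34 ± 0.33 (SD, n = 4 sets). Set 7, which gave the lowest ratio, again rests on an array with bright corner spots, and without sets 2, 7 and 8 the means were 0.56 with losartan and -0.12 with angiotensin II. Within slides the difference of group means was 0.44 on slide 1 and 1.09 on slide 2 with losartan, and -0.05 and -0.63 with angiotensin II. With losartan, slide 1 held 1 losartan fetus and 3 twins. Slide 2 held 3 losartan fetuses and only the untreated twin of set 2, so 1.09 rests on that array with bright corner spots.

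**Figure D1:**
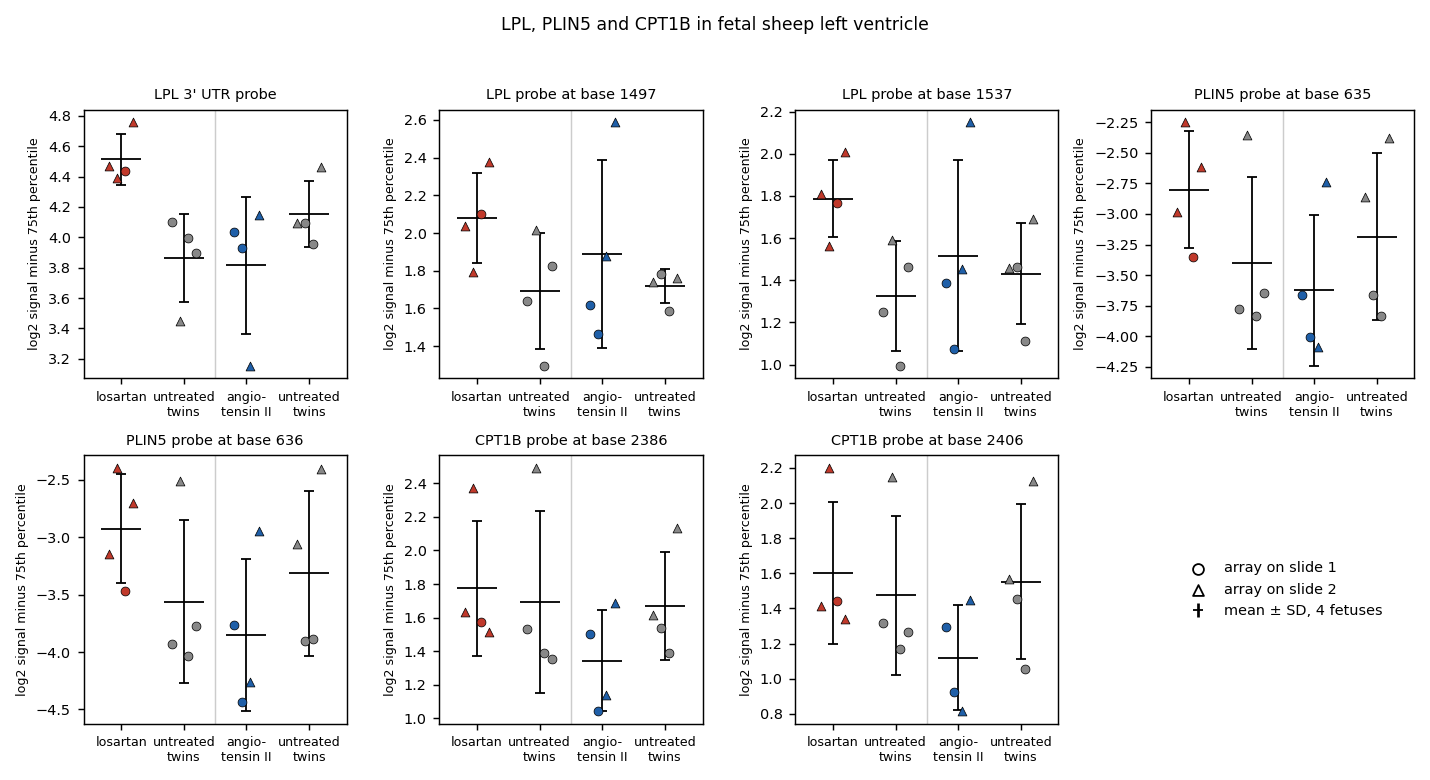
Log2 processed signal minus the array's 75th percentile (vertical axes) for each probe of LPL, PLIN5 and CPT1B in losartan fetuses, their untreated twins, angiotensin II fetuses and their untreated twins. Each point is 1 fetus, circles on slide 1 and triangles on slide 2, and bars are the mean ± SD of 4 fetuses. The LPL 3′ UTR probe reads 4.39 to 4.76 in losartan fetuses and 3.45 to 4.10 in their twins. The groups overlap on the other 6 probes.

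The coding probes of LPL gave a like picture with losartan and another one with angiotensin II. At base 1537, losartan fetuses read 1.81, 1.56, 1.77 and 2.01, against 1.25, 1.59, 0.99 and 1.46 in their twins. The log2 ratios were 0.56, -0.03, 0.77 and 0.54 (mean 0.46 ± 0.34, SD, n = 4 sets), so 3 of 4 sets were higher and the groups overlapped only through set 2. The probe at base 1497 gave ratios of 0.40, -0.22, 0.80 and 0.55 (mean 0.38 ± 0.44, SD, n = 4 sets). With angiotensin II the probe at base 1537 read 1.39, 1.08, 1.45 and 2.15, against 1.46, 1.46, 1.11 and 1.69 in the twins. Its log2 ratios were -0.07, -0.39, 0.34 and 0.46 (mean 0.09 ± 0.39, SD, n = 4 sets), and those at base 1497 were -0.12, -0.32, 0.29 and 0.83 (mean 0.17 ± 0.51, SD, n = 4 sets). Sets 5 and 6 were thus lower on all 3 LPL probes, whereas sets 7 and 8 were lower on the 3′ UTR probe and higher on both coding probes.

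The disagreement between the LPL probes followed individual arrays. The 3′ UTR value minus the mean of the coding values was 1.49 in the angiotensin II fetus of set 7, 1.78 in that of set 8 and 1.65 in the untreated twin of set 2. On the other 13 arrays it lay between 2.25 and 2.85 (median 2.57), with no overlap. The size of this difference has no meaning as a level, and only its change between arrays does. The 3 low arrays are the same 3 with bright corner spots, and whether both have 1 origin was not tested. Without sets 2, 7 and 8 the LPL probes came closer together, at 0.56 (3′ UTR), 0.58 (base 1497) and 0.63 (base 1537) with losartan in 3 sets and at -0.12, -0.22 and -0.23 with angiotensin II in 2 sets.

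**Figure D2:**
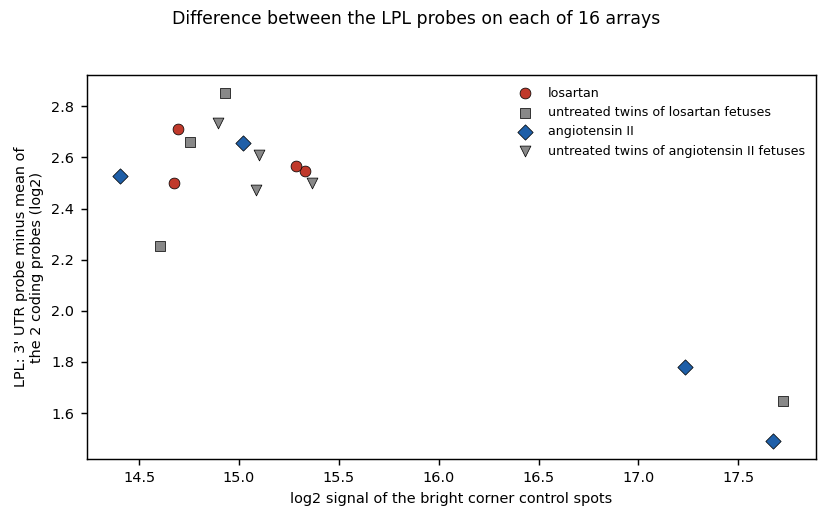
LPL 3′ UTR value minus the mean of the 2 coding probes (vertical axis, log2) against the log2 signal of the bright corner control spots (horizontal axis), 1 point per array, with losartan fetuses as circles, their untreated twins as squares, angiotensin II fetuses as diamonds and their untreated twins as triangles. The 3 arrays at 17.24 to 17.73 have differences of 1.49 to 1.78, below the other 13 at 2.25 to 2.85.

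PLIN5, the lipid droplet protein, was higher in each losartan fetus than in its twin and lower in each angiotensin II fetus than in its twin. At base 635, losartan fetuses of sets 1 to 4 read -2.98, -2.25, -3.36 and -2.62, against -3.77, -2.36, -3.83 and -3.65 in their twins. The groups overlapped because the untreated twin of set 2 was higher than 3 of the losartan fetuses. The log2 ratios were 0.79, 0.11, 0.48 and 1.03, a mean of 0.60 ± 0.40 (SD, n = 4 sets), with 2 of the 4 twins not well above background. Angiotensin II fetuses of sets 5 to 8 read -3.66, -4.00, -4.09 and -2.74, against -2.87, -3.66, -3.83 and -2.38 in their twins. Set 8 was high in both twins, and the groups overlapped. The log2 ratios were -0.80, -0.34, -0.26 and -0.36, a mean of -0.44 ± 0.24 (SD, n = 4 sets). Since 3 of these 4 treated fetuses were not well above background, no fold is given.

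The probe at base 636 gave ratios of 0.78, 0.12, 0.57 and 1.08 with losartan (mean 0.64 ± 0.41, SD, n = 4 sets) and of -0.71, -0.53, -0.38 and -0.54 with angiotensin II (mean -0.54 ± 0.13, SD, n = 4 sets). Both probes therefore had the same sign in all 8 sets. In fluorescence units the losartan fetuses read 117 to 252 at base 635, against 82.1 to 291 in their twins, and the angiotensin II fetuses read 97.3 to 206, against 114 to 247. These signals lie near the limit at which the scanner software marks a spot as above background. With the normexp background correction in place of the processed signal the means at base 635 were 0.35 with losartan and -0.22 with angiotensin II.

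**Figure D3:**
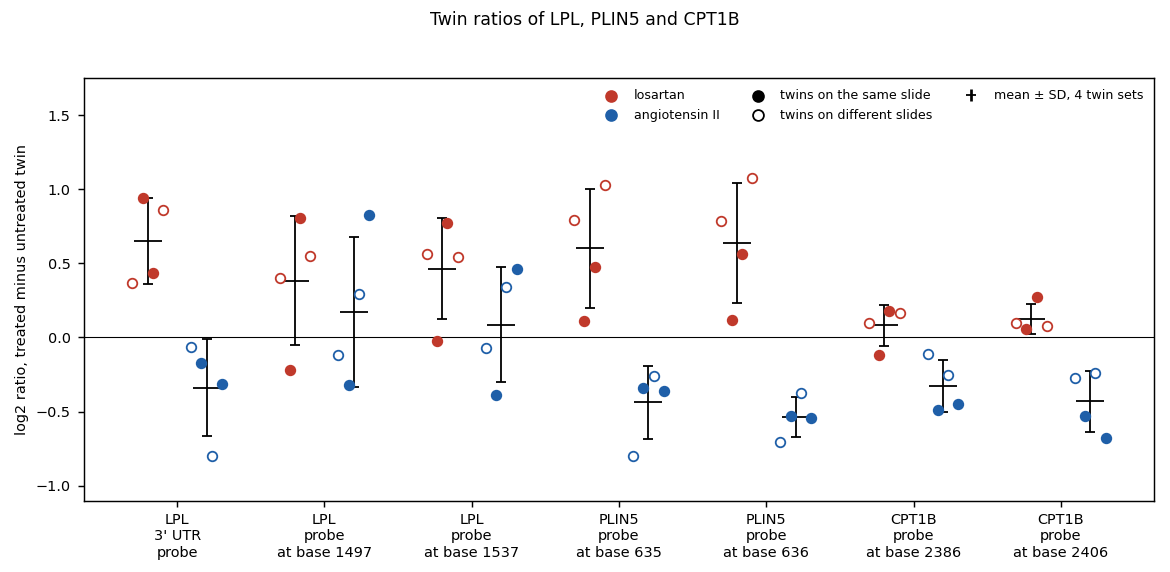
Log2 ratio of the treated fetus over its untreated twin (vertical axis) for each probe of LPL, PLIN5 and CPT1B, with losartan sets on the left of each pair and angiotensin II sets on the right. Filled points are twins on the same slide, open points twins on different slides, and bars are the mean ± SD of 4 sets. PLIN5 lies above 0 in 4 of 4 losartan sets and below 0 in 4 of 4 angiotensin II sets on both probes, while the LPL coding probes cross 0 in both.

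PLIN5 also followed the slide. Among the 8 untreated fetuses the probe at base 635 read -2.87 to -2.36 in the 3 on slide 2 and -3.83 to -3.65 in the 5 on slide 1, with no overlap and a mean difference of 1.22. Only 0.791% of the tested probes differed by as much between these slides, and the median size over tested probes was 0.17. In sets 1 and 4 the losartan fetus was on slide 2 and its twin on slide 1, and these gave the 2 largest ratios (0.79 and 1.03). In set 5 the angiotensin II fetus was on slide 1 and its twin on slide 2, and this gave the lowest ratio (-0.80). In the 4 sets whose twins shared a slide the ratios were 0.11 and 0.48 with losartan and -0.34 and -0.36 with angiotensin II. Blocking on slide besides twin set gave means of 0.41 and -0.44, and with angiotensin II the difference of group means was -0.09 on slide 1 and -0.79 on slide 2. With losartan it was 0.40 on slide 1, where 1 losartan fetus stands against 3 twins, and -0.26 on slide 2, where 3 stand against the untreated twin of set 2. The slide 2 value rests on 1 untreated array, which is also 1 of the 3 with bright corner spots.

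**Figure D4:**
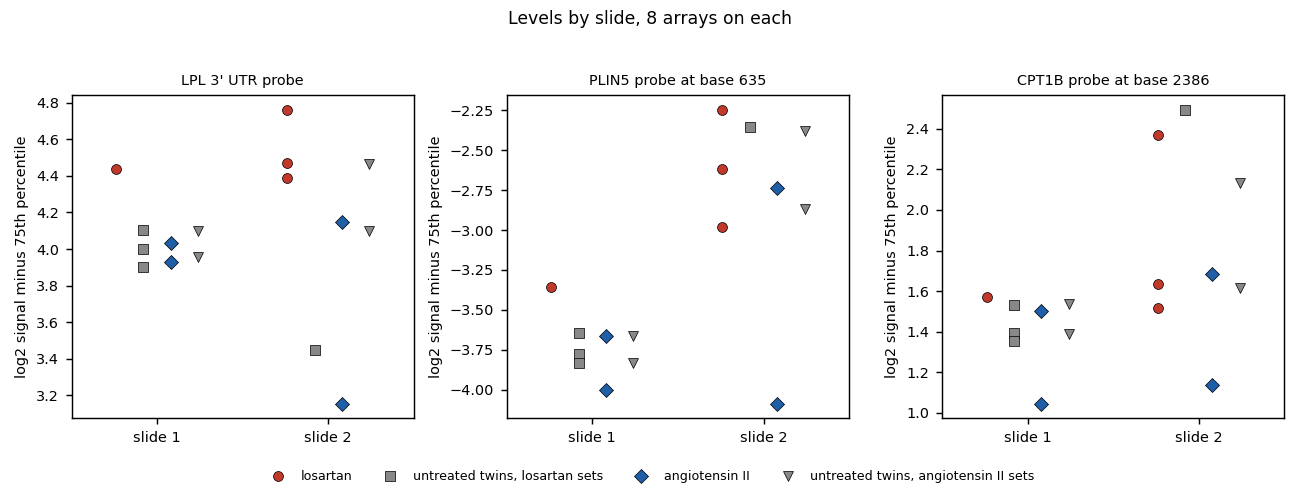
Log2 processed signal minus the array's 75th percentile (vertical axes) by slide (horizontal axes) for 1 probe each of LPL, PLIN5 and CPT1B, 1 point per fetus, marked by group. PLIN5 reads -4.00 to -3.36 on slide 1 and -2.98 to -2.25 on slide 2, apart from the angiotensin II fetus of set 7 at -4.09.

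CPT1B, the gate to mitochondrial oxidation, was lower in each angiotensin II fetus than in its twin. At base 2386, angiotensin II fetuses of sets 5 to 8 read 1.50, 1.05, 1.14 and 1.68, against 1.61, 1.54, 1.39 and 2.13 in their twins. The groups overlapped, with set 8 high in both twins. The log2 ratios were -0.11, -0.49, -0.25 and -0.45 (mean -0.33 ± 0.18, SD, n = 4 sets). At base 2406 they were -0.28, -0.53, -0.24 and -0.68 (mean -0.43 ± 0.21, SD, n = 4 sets), which is 1.35-fold lower. In the same-slide sets 6 and 8 the ratios were -0.49 and -0.45 at base 2386, larger in size than those of sets 5 and 7. Myoglobin was also lower in 4 of 4 angiotensin II fetuses on its brighter probe (log2 ratios of -0.26, -0.17, -0.08 and -0.17, mean -0.17 ± 0.07, SD, n = 4 sets). As a multiple of the 75th percentile that probe read 48.0 to 55.6 there, against 56.3 to 62.7 in their twins, with no overlap. The share of tested probes with such a gap is not given, so nothing is read from the gap. The other MB probe had ratios of -0.13, -0.0035, 0.04 and 0.22 (mean 0.03 ± 0.14, SD, n = 4 sets), so the probes disagreed. With losartan the brighter probe had a mean ratio of 0.07 ± 0.22 (SD, n = 4 sets). Its part in the CPT1B and PLIN5 ratios was not tested.

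With losartan CPT1B read close to the twins. At base 2386, losartan fetuses read 1.63, 2.37, 1.57 and 1.52, against 1.53, 2.49, 1.39 and 1.35 in their twins. The log2 ratios were 0.10, -0.12, 0.18 and 0.16 (mean 0.08 ± 0.14, SD, n = 4 sets), and at base 2406 they were 0.10, 0.06, 0.28 and 0.08 (mean 0.13 ± 0.10, SD, n = 4 sets). Set 2 stood out by level, not by ratio: both of its twins were above every other fetus on both probes. These are twins on slide 2, where untreated fetuses read 1.61 to 2.49 at base 2386, against 1.35 to 1.54 in those on slide 1. Within slide 2, where 3 losartan fetuses stand against the untreated twin of set 2 alone, the difference of group means was -0.65 at base 2386 and -0.49 at base 2406, and on slide 1 it was 0.15 and 0.19. With angiotensin II it was -0.19 and -0.15 on slide 1 and -0.46 and -0.71 on slide 2. Of the tested probes, 4.73% differed between the slides by as much as this probe (0.64).

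The order of the 4 groups by mean was alike for LPL on its 3′ UTR probe and for PLIN5. Losartan was highest (4.51 ± 0.17 for the LPL 3′ UTR probe and -2.80 ± 0.48 for PLIN5 at base 635), followed by the twins of the angiotensin II fetuses (4.15 ± 0.22 and -3.19 ± 0.68), the twins of the losartan fetuses (3.86 ± 0.29 and -3.40 ± 0.70) and the angiotensin II fetuses (3.82 ± 0.45 and -3.62 ± 0.62, SD, n = 4 each). For CPT1B at base 2386 losartan was again highest (1.77 ± 0.40) and angiotensin II lowest (1.34 ± 0.30), with the twins of the losartan fetuses at 1.69 ± 0.54 and those of the angiotensin II fetuses at 1.67 ± 0.32 (SD, n = 4 each). At base 2406 CPT1B had the order of the LPL 3′ UTR probe and PLIN5. Losartan read 1.60 ± 0.40, the twins of the angiotensin II fetuses 1.55 ± 0.44, the twins of the losartan fetuses 1.47 ± 0.45 and angiotensin II 1.12 ± 0.30 (SD, n = 4 each). On the LPL coding probes the angiotensin II fetuses came after losartan and above both groups of twins. Every pair of neighbours in these orders overlapped in range.

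In the fit over all 8971 tested probes, 0 of the 6 tested probes of the 3 genes passed an adjusted p of 0.05 in limma with losartan, where 1.22% of all tested probes did, and 0 of 6 with angiotensin II, where 0% did. For the difference between the treatment effects 0 of 6 passed, where 1.64% of all tested probes did. These are the contrasts whose values chose the genes, so nothing is read from the counts. Between the untreated twins of the losartan arm and those of the angiotensin II arm the differences were -0.29 to 0.02 in these 6 probes and none passed (limma adjusted p = 0.999 for each), where 0% of all tested probes passed and 3.33% had an unadjusted p under 0.05. For the LPL 3′ UTR probe the difference was -0.29 (SE 0.17), so a difference of that size between the groups of twins could not be resolved with 4 fetuses each.

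No correlation of the 3 genes with each other is given. The log2 ratios of LPL (3′ UTR probe) were 0.37 to 0.94 in the losartan sets and -0.80 to -0.06 in the angiotensin II sets, and those of PLIN5 were 0.11 to 1.03 and -0.80 to -0.26. The ratios of LPL and PLIN5 thus form separate clusters by treatment with 4 sets in each, too few to test a correlation within a cluster. Those of CPT1B at base 2386 overlapped between the treatments (-0.12 to 0.18 and -0.49 to -0.11), but each pair of genes includes LPL or PLIN5. Among the 8 untreated fetuses PLIN5 and CPT1B both split by slide without overlap (5 and 3 fetuses), so no correlation is given there either.

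The other genes of fatty acid handling on this array were described from 5 lists of 87 genes, of which 17 had a named probe and 11 a tested one. Counts by list were 2 of 12 uptake genes tested, 5 of 23 storage genes, 1 of 14 genes of activation and mitochondrial entry, 0 of 20 genes of beta-oxidation and 3 of 18 regulators. These counts depend on the naming of probes. Of 15008 probes 13621 had no gene name, so list genes without a named probe may still be on the array. No tested gene of the lists passed an adjusted p of 0.05 in limma in any of the 4 comparisons. Apart from LPL, PLIN5 and CPT1B, 8 genes were tested. Of these, 6 had an estimate above 0 with losartan and 5 with angiotensin II, where 51.7% and 47.1% of all tested probes did. The median log2 difference of the 8 genes was 0.12 with losartan, against 0.01 over all tested probes, and 0.08 with angiotensin II, against -0.02. At an unadjusted p under 0.05 stood 0 of the 8 genes with losartan and 3 with angiotensin II, where 12.3% and 10.4% of all tested probes did, and 3 for the difference between the effects, where 20.7% did.

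PLIN2, the perilipin found in most cells that store lipid, was higher in 4 of 4 losartan fetuses than in the twin (log2 ratios of 0.24, 0.15, 0.11 and 0.04) and lower in 4 of 4 angiotensin II fetuses (-0.27, -0.31, -0.27 and -0.18). Its limma estimates were 0.13 (SE 0.09, adjusted p = 0.580) with losartan and -0.26 (SE 0.09, adjusted p = 0.462) with angiotensin II. ABHD5, the co-activator of adipose triglyceride lipase that perilipins bind, was chosen for mention after its values were seen. It had ratios of 0.10, 0.05, 0.30 and 0.06 with losartan and of -0.51, -0.31, -0.02 and -0.12 with angiotensin II (estimates of 0.13 and -0.24, limma adjusted p = 0.672 and 0.480). Both genes thus had the signs of PLIN5 in all 8 sets, with smaller mean ratios and short of the threshold. FABP5, which carries fatty acids inside cells, had estimates of 0.32 with losartan (SE 0.21, limma adjusted p = 0.586) and 0.10 with angiotensin II (SE 0.21, limma adjusted p = 0.854), with 3 of 4 and 2 of 4 sets above 0.

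Among the regulators, PRKAA2, a catalytic subunit of the energy sensor AMPK, had estimates of the opposite signs. It had an estimate of -0.25 with losartan (SE 0.19, limma adjusted p = 0.633) and of 0.43 with angiotensin II (SE 0.19, limma adjusted p = 0.479). Its largest ratios were those of set 2 (-0.92) and of sets 7 and 8 (0.61 and 0.93), which hold the 3 arrays with bright corner spots, and without these sets the estimates were -0.031 and 0.087. PPARG, a nuclear receptor of fat storage, had an estimate of 0.11 with losartan (SE 0.29, limma adjusted p = 0.913). PPARGC1A, a co-activator that drives mitochondrial genes, had an estimate of 0.14 with angiotensin II (SE 0.19, limma adjusted p = 0.754) on its brightest probe and of 0.43 and 0.33 on the other 2 (limma adjusted p = 0.481 and 0.506). PLIN1, the perilipin of adipocytes, and DGAT1, which makes triglyceride, had the remaining estimates, of 0.61 (SE 0.43) and 0.05 (SE 0.16) with losartan and 0.09 (SE 0.43) and 0.06 (SE 0.16) with angiotensin II. The 2 probes of PLIN1 disagreed with losartan (0.61 and -0.01). PPARA, the nuclear receptor that switches on fatty acid oxidation genes, CPT1A, the liver form of CPT1, and the carnitine carrier SLC25A20 were well above background on 7, 5 and 3 of 16 arrays and were not tested.

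**Figure D5:**
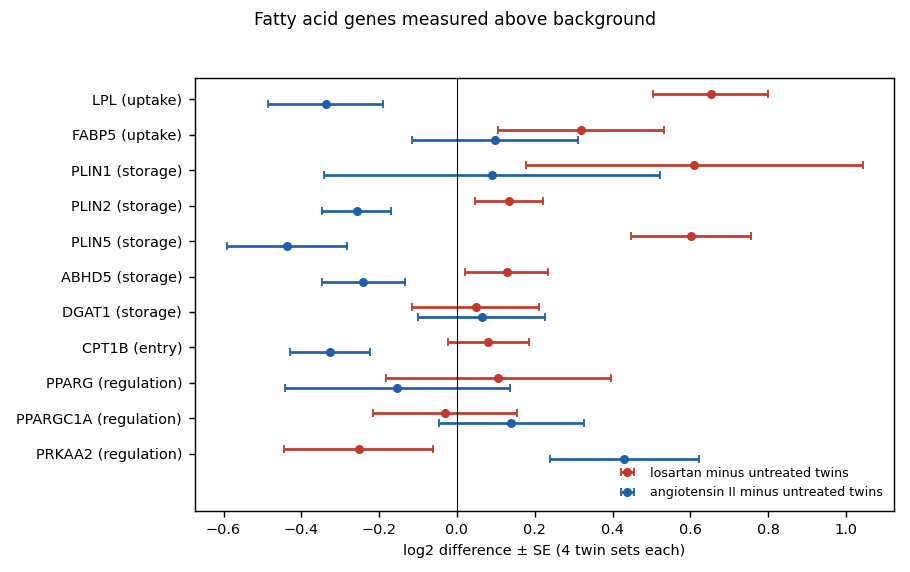
Limma log2 differences (horizontal axis, ± SE, 4 twin sets per treatment) for the 11 tested genes of the 5 fatty acid lists, losartan minus untreated twins above angiotensin II minus untreated twins in each row, with 1 probe per gene. LPL (0.65 and -0.34), PLIN5 (0.60 and -0.44) and PLIN2 (0.13 and -0.26) lie on opposite sides of 0, and no difference passed an adjusted p of 0.05.

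Markers of other cell types were read beside these ratios. Here too a marker counted as having a probe is one with a named probe, and others may be on the array unnamed. Of 6 adipocyte markers 3 had a probe (LEP, FABP4 and PLIN1), and their summed signal, as a multiple of the array's 75th percentile, was 0.736 to 1.57 in losartan fetuses and 0.673 to 1.63 in their twins, and 0.587 to 2.32 in angiotensin II fetuses and 0.608 to 1.65 in theirs. These ranges overlapped. FABP4, a defining adipocyte gene that capillary cells also express, was well above background on 7 of 16 arrays. Of 7 endothelial markers 5 had a probe, with sums of 3.15 to 4.03 in losartan fetuses and 3.28 to 4.22 in their twins, and of 3.17 to 4.18 in angiotensin II fetuses and 3.89 to 4.35 in theirs. Only 2 of these 5 passed the filter for tests. A sum weighs its brightest gene most, and PECAM1 alone had a mean log2 value of 1.79.

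The smooth muscle markers differed between treated fetuses and twins in the direction opposite to the LPL 3′ UTR probe and PLIN5. Of 5 such markers 2 had a probe, CNN1 and MYL9, which encode proteins of the contractile apparatus, and their sum was 12.4 to 17.9 in losartan fetuses, against 26.6 to 42.1 in their twins. In angiotensin II fetuses it was 50.5 to 72.6, against 27.2 to 40.7 in theirs, so the groups did not overlap with either treatment. No share of all tested probes that separate in this way is given, so nothing is read from the gap. The 1 erythroid marker of 3 with a probe, HBB, ranged from 3.05 to 25.3 in losartan fetuses and from 0.649 to 9.45 in their twins, and from 0.374 to 9.49 in angiotensin II fetuses and from 1.20 to 13.4 in theirs. Their part in the ratios of the 3 genes was not tested.

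The named genes most like each of the 3 were found by Pearson's r of the log2 twin ratios over the 8 sets, among 449 other genes. All such r pool the arms, so a gene that is high with losartan and low with angiotensin II scores well whatever it does within them, and the values are descriptions. LPL (3′ UTR probe) was most like CEBPB, a transcription factor of fat cell formation and inflammation (r = 0.956), HSD11B1, which regenerates active glucocorticoid (0.943), and ITGB6, an integrin subunit (0.897). CEBPB had ratios of 0.40, 1.44, 0.66 and 1.05 with losartan and of 0.17, 0.04, -0.43 and -0.49 with angiotensin II. PLIN5 was most like INSL3, a peptide hormone of the relaxin family (0.880), CATHL1B, an antimicrobial peptide (0.836), and MYC, a growth-promoting transcription factor (0.831). CPT1B was most like UROD, an enzyme of haem synthesis (0.834), CCR10, a chemokine receptor (0.827), and FBXO32, a ubiquitin ligase subunit of muscle (0.799). Without sets 2, 7 and 8 these values were 0.692 to 0.980 for LPL, 0.863 to 0.938 for PLIN5 and 0.801 to 0.944 for CPT1B. After each arm's mean was removed they were 0.756 to 0.841, 0.179 to 0.686 and 0.374 to 0.677, with MYC at the low end for PLIN5. The genes were picked as the 3 highest of 449 on these same ratios. All these values run high by that choice, and nothing is read from them.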

How the data were processed

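RNA of 16 left ventricles was labelled with Cy5 and hybridized to Agilent sheep arrays, per the labels' protocols. The deposited scanner files hold intensity values in fluorescence units, which Agilent Feature Extraction 10.7.3.1 background-subtracted and detrended within each array with arrays left on their own scales, per the file headers. A value table that the authors also deposited tracks mean spot signals on a natural log scale (r of 0.998 to 0.999 per array, column medians of 5.75 to 5.77). How it was normalized is not stated, and it served as an alternative after conversion to log2.

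Control spots and outlier spots (3 to 9 per array) were left out, spots of a probe were averaged, and log2 signals were centred on each array's 75th percentile. Names came from a RefSeq gene table (assembly ARS-UI_Ramb_v3.0). It was matched on symbol for 498 probes, on accession for 727, on synonym for 20 and on gene identifier for 125. The description named 17 more, and 13621 probes had none. A gene is represented by its tested probe of highest mean. The array names no genome build, so no coordinates are given.

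The 8971 probes that were well above background throughout 1 or more of the 4 groups were fitted in limma 3.58.1 (R 4.3.3) with twin set as a fixed block and 1 term per treatment (6 residual degrees of freedom), with Benjamini-Hochberg adjustment. Untreated groups were compared over 8 arrays with no block. Twin sets come from the labels, and twins' deviations from their group means had correlations of -0.04 to 0.53 (mean 0.24). With this block, p-values of the treatment comparisons measure the spread of twin differences between sets, pooled over both arms. Those of the untreated comparison measure the spread between fetuses.

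The 3 genes and the lists were chosen with earlier results of these data known. The named genes are all probes of the 3 genes, any list gene past the threshold, per treatment the 2 genes with the smallest unadjusted p in each list, and the 3 genes most like each of the 3. Marker lists for macrophages (2 of 8 genes with a probe), fibroblasts (4 of 6) and skeletal muscle (1 of 5) were also summed. The brightest gene weighs most in a sum: among the fibroblast markers DCN had a mean log2 value of 5.05 and COL1A2 of -2.78. Losartan and angiotensin II fetuses had fibroblast sums of 30.3 to 33.2 and 28.5 to 41.3, against 31.2 to 48.5 and 30.8 to 36.3 in their twins, macrophage sums of 0.110 to 0.155 and 0.0926 to 0.124, against 0.0971 to 0.128 and 0.103 to 0.133, and skeletal muscle sums of 0.173 to 0.264 and 0.181 to 0.466, against 0.195 to 3.53 and 0.170 to 0.392. Python 3.11.15, numpy 2.4.6, pandas 2.3.3 and matplotlib 3.10.9 were used.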

Additional observations from a re-analysis of the deposited data

Results flagged for a closer look

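Twin set 2 stood out by level. Its untreated twin was far above the other 3 untreated twins of the losartan fetuses for PLIN5 (-2.36 at base 635 and -2.51 at base 636) and for CPT1B (2.49 at base 2386 and 2.15 at base 2406). Its losartan fetus was far above the other 3 losartan fetuses for CPT1B (2.37 at base 2386 and 2.20 at base 2406). In each case the gap to the nearest fetus exceeded Dixon's limit for 4 values, which chance passes in about 1 of 20 groups, and 6 of 42 groups examined passed it. The 42 are not independent, since probes of a gene overlap, and nothing is read from the count. All 6 come from the fetuses of set 2, on pairs of probes that share most of their bases. Both fetuses were on slide 2, and the array of the untreated one also had bright corner spots.

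In 6 of 15 probes and genes examined all 4 losartan sets lay above 0 and all 4 angiotensin II sets below 0. No share of all tested probes with this pattern is given, so nothing is read from the count. It includes probes of genes chosen by these ratios, the PLIN5 probes that read nearly the same stretch, and ABHD5, chosen after its values were seen. The mean angiotensin II ratio minus the mean losartan ratio was -0.99 for the LPL 3′ UTR probe, -1.04 and -1.17 for PLIN5 at bases 635 and 636, -0.56 for CPT1B at base 2406, -0.37 for ABHD5 and -0.39 for PLIN2. For LPL, PLIN5 and CPT1B nothing is read from tests of these differences, since the genes were chosen with their ratios known. For PLIN2 and ABHD5 the difference of the effects did not pass (limma adjusted p = 0.143 and 0.215).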

How the results depend on the processing

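With 4 sets per treatment and PLIN5 near background, small differences could not be resolved. The PLIN5 mean with losartan was 0.18 (base 635) and 0.21 (base 636) in the authors' value table and turned to -0.26 and -0.24 within slide 2. With angiotensin II it was -0.085 and -0.21 within slide 1 and -0.79 and -0.87 within slide 2, and at base 636 it was -0.26 after normexp and -0.24 in the value table. CPT1B with losartan at base 2386 was -0.15 in the value table and -0.65 within slide 2, where base 2406 turned to -0.49. With angiotensin II base 2406 was -0.15 within slide 1 and -0.71 within slide 2. LPL's 3′ UTR probe was 1.09 within slide 2 with losartan, where the untreated twin of set 2 is the only twin. The cause was not tested. Leaving out 1 twin set moved no mean of the 7 probes by more than the SD between sets, but the LPL 3′ UTR mean with angiotensin II was -0.18 without set 7. The LPL coding means with angiotensin II were -0.049 to 0.33 (base 1497) and -0.038 to 0.24 (base 1537), below 0 without set 8. With losartan base 1497 was 0.24 without set 3 and 0.58 without set 2, and CPT1B was 0.048 to 0.15 at base 2386 and 0.076 to 0.15 at base 2406, lowest without set 3.

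Over all tested probes the counts passing in limma were 109 with losartan (33 to 99 with a twin set left out), 0 with angiotensin II (0 in each case), 147 for the difference of effects (54 to 112) and 0 between untreated groups (0 to 1). Losartan counts were 434 in the value table, 57 with probes above background on all 16 arrays, 43 and 548 within slides 1 and 2, and 0 with no replicate block for the twin sets, the pairing the labels state. The difference of effects gave 1734, 92, 38, 1902 and 3 in these settings, 430 with slide as a block and 75 without sets 2, 7 and 8. Angiotensin II gave 354 within slide 2 and 1 without sets 2, 7 and 8, and the untreated groups 172 and 1.

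The count of the 11 list genes that passed was 0 in each comparison. With losartan it was 1 in the value table (LPL). For the difference of effects it was 1 with median centring, 1 with quantile normalization and 1 without set 2 (PLIN5 each). It was 1 after normexp (LPL), 4 in the value table and 2 with slide as a block (LPL and PLIN5). With a twin set left out it was 0 to 1. Counts within single slides are not given here, since slide 1 held 1 losartan fetus and slide 2 only 1 untreated twin of the losartan sets. PRKAA2 had estimates of -0.97 with losartan and 0.83 with angiotensin II within slide 2, which holds the arrays with bright corner spots. Within slide 1 they were -0.090 and 0.032. The genes that passed include LPL and PLIN5, chosen with results known, so nothing is read from the counts of list genes. Near 0, FABP5 turned to -0.10 with losartan within slide 2 and with angiotensin II to -0.12 within slide 1, -0.33 without sets 2, 7 and 8, and -0.083 to 0.33 with a set left out (below 0 without set 7 or 8). PPARG turned to -0.018 with slide as a block, and PPARGC1A to -0.033 within slide 1, -0.26 without sets 2, 7 and 8, and -0.029 to 0.33 with a set left out (below 0 without set 7). Correlations among the 3 genes were not recomputed under other settings, since none between them is reported.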
